A study of Mus musculus with 24 samples.

Results

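The set comprised 9 mouse genes for transcription factors that divide the early neural plate from forebrain to hindbrain: Emx2, Otx1, Otx2, Lhx2, Six3, En1, En2, Gbx2 and Pax2. They were taken by gene symbol from an expression table of 22667 genes. All 9 had counts and all 9 were among the 16627 genes that passed the filter on low counts. RNA was sequenced from wild-type (WT) E14 embryonic stem cells (ESCs) and from E14 cells homozygous for Polr2a R749H (slow/slow), a knock-in mutation in the largest subunit of RNA polymerase II that lowers its elongation rate. Each genotype was sampled at 4 stages with 3 replicates, giving 24 libraries. ESCs were kept undifferentiated on gelatin in 2i medium with LIF. Neural precursor cells (NPCs) were taken on day 7 of monolayer culture in N2B27 medium, PSA-NCAM+ cells were purified on day 10 with beads against that surface sugar of young neurons, and mature neurons were replated on day 7 and grown for 14 more days with ascorbic acid and cAMP.

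Limits of these groups as a model bear on every comparison. The NPC and PSA-NCAM+ cultures were seeded at 10000 cells per cm2 for WT and 30000 for slow/slow, so the effects of density and genotype cannot be told apart at these stages. Mature neurons were replated from day 7 cultures, for which the labels give no seeding density. Density before replating therefore cannot be told apart from genotype in neurons either. The slow/slow cells are a line derived by serial gene targeting, so genotype and line cannot be told apart either. Levels are given as CPM, counts scaled to the depth of each library. In such bulk samples, fewer cells making a gene and less RNA per cell cannot be told apart.

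In the embryo, Otx2 marks the future forebrain and midbrain and Gbx2 the future anterior hindbrain, and each represses the other where their domains meet. The midbrain-hindbrain boundary forms at that interface, where Pax2, En1 and En2 act together with Wnt1 and Fgf8. Six3 and Lhx2 belong to the anterior forebrain and the eye field, and Emx2 and Otx1 to the dorsal forebrain. Several members have roles outside the brain as well: Otx2 and Gbx2 are active in pluripotent cells, and Pax2 and Emx2 in the embryonic kidney.

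Library totals ranged from 32974432 to 104466886 counts. Defining markers followed the stage labels in part. Pou5f1, a core pluripotency factor, was most abundant in ESCs (mean 1760 CPM in WT) and remained high later, with 639 (WT) and 736 CPM (slow/slow) in NPCs, and 412 (WT) and 299 CPM (slow/slow) in PSA-NCAM+ cells. The summed level of 5 neuronal markers (Map2, Rbfox3, Syn1, Dcx and Snap25) lay between 16 and 79.7 CPM in PSA-NCAM+ libraries and between 1645 and 2327 CPM in neuron libraries. The progenitor marker Sox1 had no values in the table. Among the PSA-NCAM+ libraries, replicate 1 of each genotype stood apart from replicates 2 and 3 for several members, and each member's genotype difference at this stage is therefore given with and without those 2 libraries.

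Otx2, Gbx2, En1, En2 and Pax2 were called higher in slow/slow NPCs and PSA-NCAM+ cells, and the sequence before the start sites of those with a RefSeq window, which En2 lacked, is shown for orientation. RefSeq promoter windows (GRCm38.p6) existed for 7 of the 9 members, in 13 windows of which the 250 bases before the start were searched on both strands for 5 short motifs. Capitals mark a match to TAATTA, a core bound by many homeodomain proteins including those of the En and Gbx families, or to TATAAA, the TATA box. Each stretch is given on the gene's own strand, up to the first base that GENCODE annotates as an exon of the same gene.
Otx2 (chr14:48667645-48667894, minus strand): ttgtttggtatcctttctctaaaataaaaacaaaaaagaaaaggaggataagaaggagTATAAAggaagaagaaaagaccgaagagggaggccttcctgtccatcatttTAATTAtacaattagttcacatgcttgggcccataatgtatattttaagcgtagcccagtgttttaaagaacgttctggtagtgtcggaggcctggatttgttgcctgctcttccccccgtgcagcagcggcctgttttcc
Gbx2 (chr1:89931180-89931426, minus strand): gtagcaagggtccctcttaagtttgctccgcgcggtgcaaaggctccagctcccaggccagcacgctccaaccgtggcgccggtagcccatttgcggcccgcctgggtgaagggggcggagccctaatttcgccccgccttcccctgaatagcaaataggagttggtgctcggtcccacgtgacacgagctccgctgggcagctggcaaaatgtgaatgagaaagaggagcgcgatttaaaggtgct
En1 (chr1:120602237-120602417, plus strand): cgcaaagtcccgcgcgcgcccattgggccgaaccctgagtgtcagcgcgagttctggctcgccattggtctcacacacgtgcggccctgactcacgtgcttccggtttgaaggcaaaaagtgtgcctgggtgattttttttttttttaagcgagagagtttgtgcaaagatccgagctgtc
Pax2 (chr19:44755502-44755751, plus strand): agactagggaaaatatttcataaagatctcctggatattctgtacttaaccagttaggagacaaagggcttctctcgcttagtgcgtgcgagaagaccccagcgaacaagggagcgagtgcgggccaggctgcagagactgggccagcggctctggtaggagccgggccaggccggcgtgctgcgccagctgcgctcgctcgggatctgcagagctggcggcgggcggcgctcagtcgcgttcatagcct
Only the Otx2 windows held any match among the 7 members. TAATTA was present in 2 of the 13 member windows against 4.84% of all 32851 promoter windows, TAATCC, the core recognised by Otx proteins, in 1 against 6.25%, and TATAAA in 1 against 12.4%. Both Otx2 windows with matches lie before starts inside the annotated gene, whose first base on this strand is 48673819. The printed window (start at 48667644) overlaps no annotated exon. The other (start at 48665109) lies in annotated Otx2 exons and is not printed. CTTTGAT (bound by TCF/LEF factors) and ATTTGCAT (the POU octamer) were in none of the 13, against 3.21% and 1.6% of all windows. These letters are descriptions of the windows and say nothing on binding.

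Between genotypes, the members called differed by stage. In NPCs, 5 of the 9 were higher in slow/slow cells (Otx2, En1, En2, Gbx2 and Pax2) and 2 were lower (Otx1 and Lhx2), where 56.7% of all tested genes were called, 29.3% higher and 27.4% lower. In PSA-NCAM+ cells the same 5 were higher and none was lower, where 56.7% of genes were called, 28.6% higher and 28.1% lower. In mature neurons 4 were higher (Emx2, Otx1, Otx2 and Lhx2) and none was called lower, against 51.9% of genes, 23.4% higher and 28.4% lower. In ESCs En2 was higher and Lhx2 lower, against 40.4% of genes. Of the 4 that were higher in neurons, Otx2, which marks forebrain and midbrain, was also higher at the middle stages. Emx2, Otx1 and Lhx2 are forebrain factors, but Six3, another one, was not called at any stage. All 3 boundary factors and Gbx2 were among those higher at the middle stages. A call is a false discovery rate (FDR) below 0.05 in edgeR's quasi-likelihood test over all 16627 genes, and differences are log2 values of slow/slow over WT with their standard error (SE). Against these shares, the counts of 2, 7, 5 and 4 of 9 are not read as a result about the set, and the members are described one by one.

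**Figure D1:**
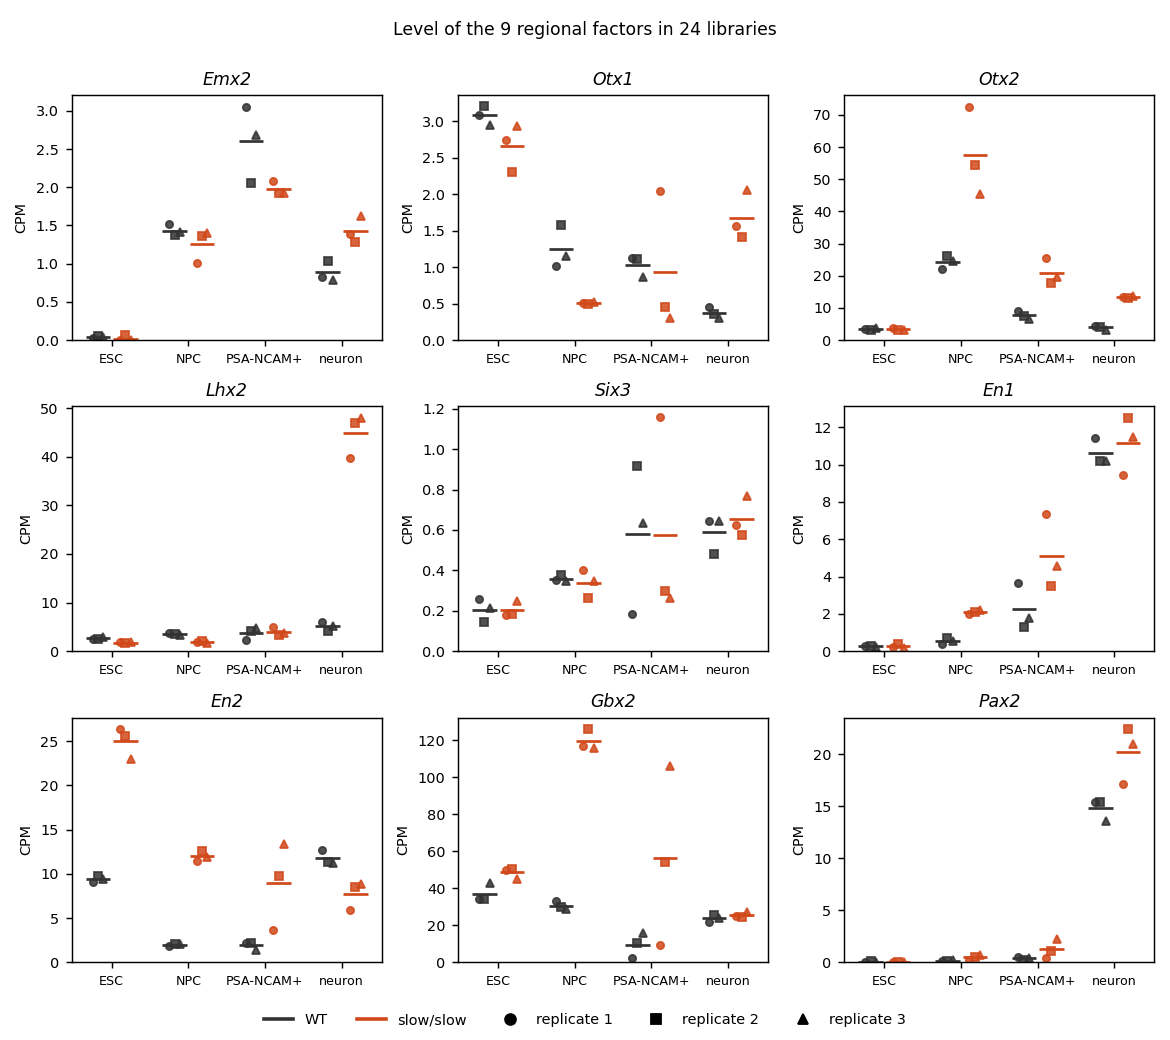
Level of each member in CPM (vertical axis, linear, from 0) at the 4 stages, with a point for each library, its shape giving the replicate number, and a line for the mean of 3 libraries. Otx2 and Gbx2 peak in slow/slow NPCs at means of 57.4 and 119 CPM, Lhx2 in slow/slow neurons at 44.9 CPM, and En1 and Pax2 in neurons of either genotype.

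Levels can be compared between genes only per length, for which the authors' mean RPKM per group was used. In WT ESCs Gbx2 led with 16.6 RPKM, followed by En2 with 2.51 and Otx2 with 1.4. In WT NPCs Gbx2 (15.5) and Otx2 (11.3) exceeded the other members, of which Lhx2 was next with 1.64. In slow/slow NPCs Gbx2 reached 58.7 and Otx2 25.9. In WT neurons Pax2 (12.3) and Gbx2 (11.5) led, with En1 at 4.22 and En2 at 3.37, while in slow/slow neurons Lhx2 had the highest value of the 9 with 21.9. Six3 had the lowest maximum of the set, 0.177 RPKM.

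Six3, a repressor that protects the anterior forebrain from posteriorizing Wnt signals, was scarce at every stage. The gene lies at chr17:85613608-85629302 (GRCm38, plus strand). Its highest group mean was 0.655 ± 0.101 CPM (SD, n = 3) in slow/slow neurons, and neighbouring groups in the order of levels overlapped except slow/slow NPCs and WT ESCs. Genotypes did not differ detectably in ESCs (-0.08 ± 0.61, FDR = 0.944), NPCs (-0.07 ± 0.52, FDR = 0.921) or neurons (0.13 ± 0.47, FDR = 0.84). In PSA-NCAM+ cells the WT libraries held 0.185, 0.914 and 0.635 CPM and the slow/slow libraries 1.16, 0.299 and 0.262 CPM. Replicate 1 was thus the lowest WT and the highest slow/slow library, and the mean difference of -0.05 ± 0.48 (FDR = 0.941) hides opposite differences. With both replicate 1 libraries left out, Six3 was lower in slow/slow PSA-NCAM+ cells by a log2 difference of -1.45 ± 0.27 (FDR = 3.77e-05), and without the slow/slow replicate 1 alone by -0.98 (FDR = 0.0375).

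Lhx2, a LIM-homeodomain factor needed for the eye field and the cortex, gave the largest difference between genotypes in mature neurons among the members. It is encoded at chr2:38339281-38369733 (GRCm38, plus strand). WT neuron libraries held 5.92, 4.20 and 5.24 CPM and slow/slow neuron libraries 39.8, 46.9 and 48.0 CPM. No WT library came near the lowest slow/slow library, and the log2 difference was 3.13 ± 0.21, or 8.76-fold (FDR = 4.34e-10). Before that stage Lhx2 was lower or equal in slow/slow cells. NPC libraries held 3.81, 3.52 and 3.31 CPM in WT and 1.80, 2.12 and 1.68 CPM in slow/slow, with no overlap and a log2 difference of -0.93 ± 0.21 (FDR = 0.000889). In ESCs the values were 2.48, 2.58 and 2.84 CPM against 1.83, 1.64 and 1.83 CPM, a difference of -0.58 ± 0.21 (FDR = 0.0369) that was not called when any single ESC library was left out (FDR from 0.053 to 0.112). PSA-NCAM+ cells overlapped (2.31, 4.12 and 4.71 CPM against 5.02, 3.41 and 3.70 CPM, FDR = 0.62), and the sign of the difference, 0.12 ± 0.20, turned to -0.32 ± 0.14 without the replicate 1 libraries (FDR = 0.0517).

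The course of Lhx2 from NPCs to neurons therefore depended on genotype. In WT it rose by a log2 value of 0.53 ± 0.20 (1.45-fold, FDR = 0.0195), a call that was lost without WT NPC replicate 3 (0.49), WT neuron replicate 1 (0.39) or WT neuron replicate 3 (0.49), and under upper-quartile scaling (0.26 ± 0.21, FDR = 0.255). In slow/slow it rose by 4.59 ± 0.23 (24-fold, FDR = 4.01e-13). From ESCs to NPCs Lhx2 was not called in WT (0.43 ± 0.20, FDR = 0.0727), but was without the PSA-NCAM+ replicate 1 libraries (0.43, FDR = 0.00456). The genotype difference in neurons minus that in NPCs was 4.06 ± 0.29 (FDR = 1.36e-09). Summed levels of 7 eye markers (among them Rax, Six6, Mitf and Crx) were 12.3 to 14.2 CPM in slow/slow and 6.06 to 6.39 CPM in WT neurons. Among those 7, 1 was called higher and 1 lower in slow/slow neurons. Rax, a defining eye field gene, was scarce in neurons of both genotypes, at means of 0.0514 CPM in slow/slow and 0.041 CPM in WT (FDR = 0.857). The part of eye-like cells in the Lhx2 result was not tested.

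Emx2, a homeobox gene of the dorsal forebrain, was nearly absent from ESCs and present at low level afterwards. The gene lies at chr19:59458372-59465357 (GRCm38, plus strand). ESC libraries held 2, 2 and 2 counts in WT and 0, 3 and 0 in slow/slow, at or under the floor of 3 counts per library, so no genotype difference is given there. From ESCs to NPCs it rose in WT from 6 to 258 counts over 3 libraries, a ratio of 37.1 per unit of depth (95% interval 16.8 to 102, counting error only), and in slow/slow from 3 to 192 counts, a ratio of 50.2 (16.9 to 246). NPC levels of 1.52, 1.37 and 1.41 CPM in WT and 1.01, 1.36 and 1.40 CPM in slow/slow overlapped (-0.20 ± 0.25, FDR = 0.527), as did PSA-NCAM+ levels (-0.40 ± 0.24, FDR = 0.166, and -0.31 ± 0.20 without the replicate 1 libraries, FDR = 0.165). In neurons the WT libraries held 0.829, 1.04 and 0.789 CPM and the slow/slow libraries 1.39, 1.29 and 1.62 CPM, a difference of 0.69 ± 0.25 (FDR = 0.0293). That call rested on single libraries: it was lost without WT neuron replicate 1 (0.63, FDR = 0.0923) or 3 (0.60, FDR = 0.111) and without slow/slow neuron replicate 1 (0.70, FDR = 0.0599) or 3 (0.59, FDR = 0.102).

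Otx1, the forebrain paralogue of Otx2, was lower in slow/slow NPCs and higher in slow/slow neurons. Its locus is chr11:21994764-22002897 (GRCm38, minus strand). NPC libraries held 1.02, 1.58 and 1.15 CPM in WT and 0.505, 0.501 and 0.518 CPM in slow/slow, without overlap (-1.31 ± 0.45, FDR = 0.0191). The NPC call was lost without WT NPC replicate 2 (-1.10, FDR = 0.0757) or slow/slow NPC replicate 1 (-1.30, FDR = 0.053). Neuron libraries held 0.460, 0.353 and 0.298 CPM in WT and 1.56, 1.41 and 2.06 CPM in slow/slow, a 4.51-fold difference (2.17 ± 0.45, FDR = 0.000472) called in all 6 fits that left out a library. From NPCs to neurons Otx1 fell in WT by 1.77 ± 0.45 on the log2 scale (FDR = 0.00134) and rose in slow/slow by 1.71 ± 0.45 (FDR = 0.00204), and the difference between those courses was 3.48 ± 0.64 (FDR = 0.000131).

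Its levels were highest in ESCs of either genotype (3.08 ± 0.133 CPM in WT and 2.66 ± 0.321 in slow/slow, SD, n = 3), where genotypes did not differ detectably (FDR = 0.717). The NPC step lowered Otx1 in WT by 1.29 ± 0.42 (FDR = 0.0104) and in slow/slow by 2.38 ± 0.46 (FDR = 0.000131). In PSA-NCAM+ cells the slow/slow libraries spread from 2.04 CPM in replicate 1 to 0.459 and 0.306 CPM in replicates 2 and 3, around the WT values of 1.13, 1.11 and 0.863 CPM. With all libraries no difference was detected (-0.22 ± 0.43, FDR = 0.686). Without both replicate 1 libraries it was -1.35 ± 0.27 (FDR = 9.86e-05), and without the slow/slow one alone -1.43 (FDR = 3.32e-05).

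Otx2, which specifies the forebrain and midbrain territory, was higher in slow/slow cells at all 3 stages after ESCs. The gene lies at chr14:48657677-48673819 (GRCm38, minus strand). ESC libraries held 3.42, 3.07 and 3.72 CPM in WT and 3.87, 3.21 and 3.13 CPM in slow/slow, with overlap and a difference of -0.00 ± 0.18 (FDR = 1). In NPCs the values were 22.2, 26.1 and 24.6 CPM against 72.6, 54.3 and 45.3 CPM. Every slow/slow library exceeded every WT library, by 2.36-fold on average (1.24 ± 0.17, FDR = 4.17e-06). PSA-NCAM+ cells held 9.17, 7.35 and 6.56 CPM against 25.4, 17.9 and 19.7 CPM (1.44 ± 0.17, FDR = 6.91e-07), and neurons 4.36, 4.17 and 3.24 CPM against 13.5, 13.1 and 13.7 CPM (1.78 ± 0.17, FDR = 6.99e-08). These 3 calls did not depend on any single library of the groups compared, and the PSA-NCAM+ difference was 1.43 ± 0.16 without the replicate 1 libraries.

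Both genotypes shared the shape of the Otx2 course. It rose from ESCs to NPCs 7.12-fold in WT (2.83 ± 0.18, FDR = 5.31e-11) and 16.9-fold in slow/slow (4.08 ± 0.19, FDR = 3.57e-13), and the difference between these rises was 1.24 ± 0.25 (FDR = 0.00101). From NPCs to PSA-NCAM+ cells it fell by 1.66 ± 0.17 in WT (FDR = 5.88e-07) and by 1.45 ± 0.17 in slow/slow (FDR = 2.07e-06), and from NPCs to neurons by 2.63 ± 0.18 (FDR = 2.41e-11) and by 2.10 ± 0.17 (FDR = 8.81e-10). The courses after NPCs did not differ detectably between genotypes (0.20 ± 0.23, FDR = 0.615, and 0.54 ± 0.24, FDR = 0.061). Both later steps share the NPC libraries with the first.

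Gbx2, the hindbrain-side partner of Otx2 and a gene of naive ESCs, was like it higher in slow/slow than in WT NPCs. Gbx2 spans chr1:89927956-89931179 (GRCm38, minus strand). NPC libraries held 33.0, 29.7 and 29.0 CPM in WT and 117, 126 and 116 CPM in slow/slow, with no overlap and a 3.91-fold difference (1.97 ± 0.55, FDR = 0.00502). In ESCs the values were 34.1, 34.3 and 42.9 CPM against 49.9, 50.6 and 45.2 CPM. These groups did not overlap either, but the difference of 0.39 ± 0.54 was not called (FDR = 0.599). It was called with the ESC libraries alone (0.41 ± 0.08, FDR = 0.000769) and with the PSA-NCAM+ replicate 1 libraries left out (0.39 ± 0.16, FDR = 0.0399), where the spread is no longer estimated together with those libraries. The SD of Gbx2 was 48.6 CPM in slow/slow PSA-NCAM+ cells and at most 6.88 CPM in the other groups. Among all genes, 59.8% had ESC libraries that did not overlap between genotypes and 74.7% had NPC libraries that did not.

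In PSA-NCAM+ cells Gbx2 ranged widely. WT libraries held 2.17, 10.2 and 15.9 CPM and slow/slow libraries 9.31, 54.3 and 106 CPM, so that replicate 1 was lowest in each genotype and slow/slow replicate 1 lay below 2 of the WT libraries. Against the WT library of the same number, slow/slow was higher by 2.10, 2.42 and 2.75 on the log2 scale. The fit gave 2.61 ± 0.57 (FDR = 0.000675), 2.62 ± 0.21 without the replicate 1 libraries (FDR = 5.12e-11), 1.78 without slow/slow replicate 3 and 3.24 without WT replicate 3, both still called. The value was 2.56 ± 0.98 with the 6 PSA-NCAM+ libraries alone, where the call was lost (FDR = 0.104). The call was kept when those 6 libraries were fitted with the replicate number as a block. In neurons the libraries overlapped, at 21.6, 25.8 and 23.8 CPM in WT and 25.1, 24.7 and 27.2 CPM in slow/slow (0.11 ± 0.54, FDR = 0.883, and 0.18 with the neuron libraries alone, FDR = 0.043).

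From ESCs to NPCs Gbx2 did not change detectably in WT (-0.28 ± 0.54, FDR = 0.664). In slow/slow it rose by 1.30 ± 0.54 (FDR = 0.0436), a value no longer called when any single ESC or NPC library of that genotype was left out (1.25 to 1.33, FDR from 0.0701 to 0.103). From NPCs to PSA-NCAM+ cells it fell in WT by 1.71 ± 0.56 (FDR = 0.0191), or by 1.23 without WT PSA-NCAM+ replicate 1, where the call was lost (FDR = 0.0687), and the value was -2.34 without WT replicate 3. In slow/slow the fall of 1.07 ± 0.54 did not pass (FDR = 0.115), but did at 1.90 without slow/slow PSA-NCAM+ replicate 3 (FDR = 0.00961). Without both PSA-NCAM+ replicate 1 libraries the slow/slow value was -0.57 (FDR = 0.00773). At the neuron step WT showed a value of -0.36 ± 0.54 (FDR = 0.543), and slow/slow fell by 2.22 ± 0.56 (FDR = 0.0013) to levels that overlapped WT. With the samples compared alone, the WT values were called at both the first (-0.25, FDR = 0.00781) and the neuron step (-0.42, FDR = 7.44e-05).

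En1 and En2, the engrailed paralogues that pattern midbrain and anterior hindbrain, were both higher in slow/slow NPCs and PSA-NCAM+ cells, but En2 differed already in ESCs. En1 lies at chr1:120602418-120607992 (GRCm38, plus strand) and En2 at chr5:28165694-28172166 (GRCm38, plus strand). En2 ESC libraries held 9.12, 9.81 and 9.38 CPM in WT and 26.4, 25.6 and 23.0 CPM in slow/slow, a clear separation of 2.65-fold (1.41 ± 0.28, FDR = 0.000462) called in all 6 fits that left out a library. En1 was scarce in ESCs of both genotypes (0.259 ± 0.0379 and 0.268 ± 0.0926 CPM, SD, n = 3, FDR = 0.895).

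In NPCs En2 was 6.07-fold higher in slow/slow cells, the largest NPC difference of the set. WT libraries held 1.83, 2.04 and 2.02 CPM and slow/slow libraries 11.4, 12.6 and 11.9 CPM (2.60 ± 0.30, FDR = 6.17e-07). En1 NPC libraries held 0.374, 0.694 and 0.570 CPM in WT and 2.02, 2.10 and 2.22 CPM in slow/slow (1.93 ± 0.34, FDR = 7.52e-05). Neither gene overlapped between genotypes. The 2 paralogues reached these levels from opposite sides, since from ESCs to NPCs En2 fell (by 2.26 ± 0.30 in WT and by 1.06 ± 0.28 in slow/slow, FDR = 1.47e-06 and 0.00236) while En1 rose (1.10 ± 0.40 in WT and 2.93 ± 0.38 in slow/slow, FDR = 0.0201 and 1.28e-06). The WT rise of En1 was not called without WT ESC replicate 3 (0.98, FDR = 0.0727) or WT NPC replicate 2 (0.89, FDR = 0.0873).

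In PSA-NCAM+ cells En2 held 2.15, 2.16 and 1.42 CPM in WT and 3.61, 9.79 and 13.4 CPM in slow/slow, separate but with slow/slow replicate 1 closest to WT (2.23 ± 0.30, FDR = 2.91e-06). Without the replicate 1 libraries the En2 difference was 2.71 ± 0.19 (FDR = 4e-12). En1 held 3.68, 1.32 and 1.78 CPM against 7.35, 3.47 and 4.55 CPM, where replicate 1 was highest in each genotype. Groups overlapped, but slow/slow exceeded the same-numbered WT library in 3 of 3 pairs (1.00, 1.39 and 1.36). The fit gave En1 1.16 ± 0.30 (FDR = 0.00279), and 1.36 ± 0.19 without the replicate 1 libraries (FDR = 7.86e-07). With the 6 PSA-NCAM+ libraries alone the call was lost (1.17 ± 0.47, FDR = 0.118), but it was kept with the replicate number as a block in them.

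In neurons the genotypes converged for En1 and crossed for En2. En1 held 11.4, 10.2 and 10.2 CPM in WT and 9.44, 12.5 and 11.5 CPM in slow/slow (0.07 ± 0.29, FDR = 0.856). En2 held 12.7, 11.3 and 11.2 CPM against 5.91, 8.46 and 8.85 CPM, without overlap, a difference of -0.60 ± 0.28 that was not called (FDR = 0.0755). It was called with the neuron libraries alone (-0.54 ± 0.13, FDR = 0.00429) and without the PSA-NCAM+ replicate 1 libraries (-0.61 ± 0.13, FDR = 0.000213). From NPCs to neurons En2 rose in WT by 2.58 ± 0.30 (FDR = 1.08e-07) and fell in slow/slow by 0.63 ± 0.28 (FDR = 0.0475). The slow/slow call was lost with DESeq2 size factors (-0.60, FDR = 0.0522) and without slow/slow NPC replicate 1, 2 or 3 or slow/slow neuron replicate 1 (-0.66, -0.59, -0.63 and -0.49). En1 rose in both, 19.1-fold in WT (4.26 ± 0.35, FDR = 4.87e-10) and 5.28-fold in slow/slow (2.40 ± 0.31, FDR = 7.44e-07).

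Pax2, an early factor of the midbrain-hindbrain boundary, was a gene of the neuron stage in these cultures. The gene lies at chr19:44756045-44837871 (GRCm38, plus strand). Neuron libraries held 15.4, 15.4 and 13.6 CPM in WT and 17.1, 22.4 and 21.0 CPM in slow/slow. The groups were separate, as for 75.6% of all genes at this stage, and the difference of 0.45 ± 0.36 was not called (FDR = 0.306), but was with the neuron libraries alone (0.52 ± 0.10, FDR = 0.000707) and without the PSA-NCAM+ replicate 1 libraries (0.45 ± 0.16, FDR = 0.0147). Pax2 rose from NPCs to neurons 92.1-fold in WT (6.53 ± 0.50, FDR = 1.72e-10) and 42.1-fold in slow/slow (5.40 ± 0.46, FDR = 1.36e-09), the largest step of any member between those stages. Summed levels of 7 mesoderm and kidney markers (T, Tbx6, Mixl1, Kdr, Wt1, Osr1 and Lhx1) were 146 to 172 CPM in WT and 99.7 to 116 CPM in slow/slow neurons, of which 3 were called higher and 3 lower. The sums rest on different genes, since the most abundant marker was T in WT (mean 76.8 CPM) and Lhx1 in slow/slow neurons (mean 83.1 CPM). The part of these markers in the Pax2 level was not tested.

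At the earlier stages Pax2 was close to the detection limit. ESC libraries held 3, 3 and 2 counts in WT and 1, 0 and 1 in slow/slow, so no genotype difference is given. From ESCs to NPCs the counts over 3 libraries went from 8 to 29 in WT, a ratio of 3.13 per unit of depth (95% interval 1.4 to 7.93), and from 2 to 71 in slow/slow, a ratio of 27.9 (7.44 to 235). NPC libraries held 0.104, 0.151 and 0.210 CPM in WT and 0.259, 0.549 and 0.690 CPM in slow/slow, without overlap (1.58 ± 0.54, FDR = 0.0171). That call was lost without WT NPC replicate 1 (1.39, FDR = 0.0569) or slow/slow NPC replicate 3 (1.26, FDR = 0.0815).

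PSA-NCAM+ libraries held 0.555, 0.272 and 0.375 CPM of Pax2 in WT and 0.408, 1.13 and 2.25 CPM in slow/slow, and only replicate 1 was higher in WT. The fit gave 1.65 ± 0.42 (FDR = 0.0025), 2.36 ± 0.35 without both replicate 1 libraries (FDR = 2.1e-06) and 0.96 without slow/slow replicate 3 (FDR = 0.042). The call was lost with the 6 PSA-NCAM+ libraries alone (1.62 ± 0.62, FDR = 0.105), also with the replicate number as a block (1.42 ± 0.65, FDR = 0.136). From NPCs to PSA-NCAM+ cells Pax2 rose by 1.36 ± 0.53 in WT (FDR = 0.0443) and by 1.44 ± 0.43 in slow/slow (FDR = 0.0117). The WT call was lost in 5 of the 6 fits that left out a library (1.03 to 1.64), and the slow/slow call without slow/slow NPC replicate 1 (1.06, FDR = 0.0863) or slow/slow PSA-NCAM+ replicate 3 (0.76, FDR = 0.117).

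**Figure D2:**
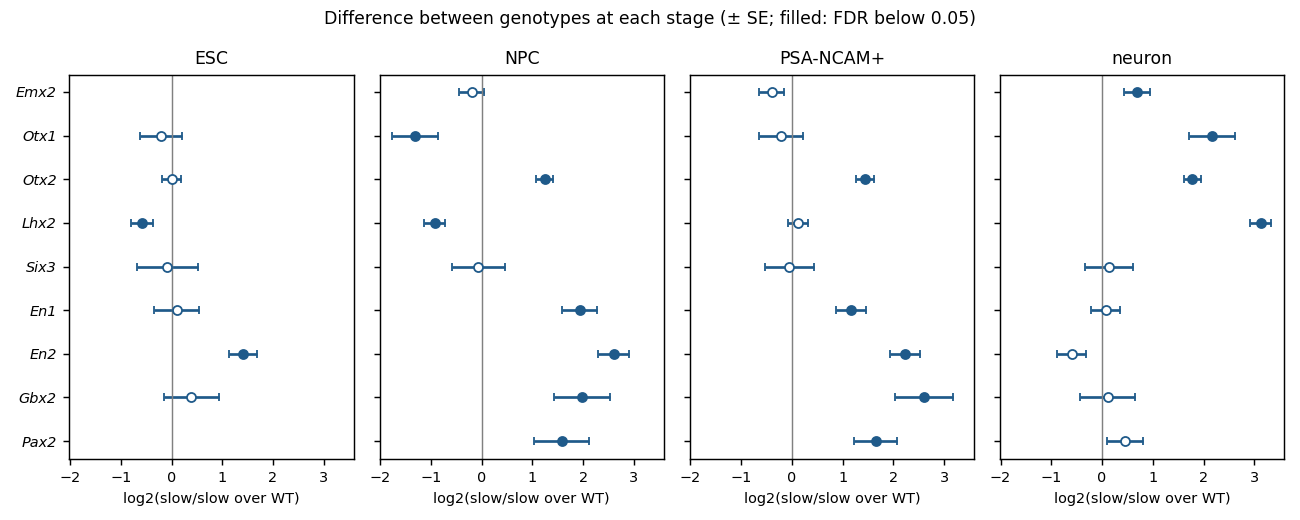
Difference between genotypes of each member at each stage, as log2 of slow/slow over WT (horizontal axis) with its SE, filled where the FDR is below 0.05. In NPCs and PSA-NCAM+ cells the filled points right of 0 are Otx2, En1, En2, Gbx2 and Pax2, in neurons they are Emx2, Otx1, Otx2 and Lhx2. Emx2 and Pax2 in ESCs are left out because no library held more than 3 counts.

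**Figure D3:**
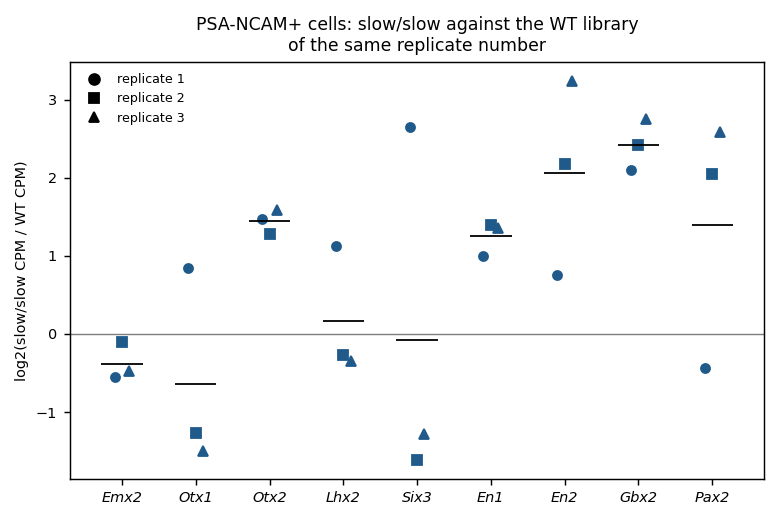
Log2 ratio of each slow/slow PSA-NCAM+ library over the WT library of the same replicate number (vertical axis) for the 9 members, with the mean of the 3 pairs as a line. Otx2, En1, En2 and Gbx2 lie above 0 in 3 of 3 pairs, while Otx1, Lhx2 and Six3 are above 0 in replicate 1 and below it in replicates 2 and 3.

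The pairs of same-numbered PSA-NCAM+ libraries set the members into groups. Otx2 varied least between pairs (1.47, 1.28 and 1.58) and Six3 most (2.65, -1.61 and -1.28). Emx2 was lower in slow/slow in 3 of 3 pairs (-0.55, -0.10 and -0.48), without a call. The Six3, Otx1 and Lhx2 values of replicate 1 were opposite in sign to those of replicates 2 and 3. In the stage as a whole, 43.1% of genes had libraries that did not overlap between genotypes, the lowest share of the 4 stages.

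Since Otx2 and Gbx2 oppose each other at the boundary, their ratio was taken within each library, where depth and scaling cancel. It is given as log2 of Otx2 over Gbx2 counts and described without a test, and its zero has no meaning because the transcripts differ in length. WT ESC libraries held -3.32, -3.48 and -3.53 and slow/slow ESC libraries -3.69, -3.98 and -3.85. NPC libraries held -0.57, -0.18 and -0.24 in WT and -0.69, -1.21 and -1.35 in slow/slow. At both stages every slow/slow library leaned further towards Gbx2 than every WT library, by 0.40 and 0.75 on average.

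In PSA-NCAM+ cells the ratio spanned the widest range, 2.08, -0.47 and -1.27 in WT and 1.45, -1.60 and -2.44 in slow/slow. Groups overlapped, but each slow/slow library was lower than the WT library of its number, by -0.63, -1.14 and -1.16. In neurons the order reversed, with -2.31, -2.63 and -2.88 in WT and -0.89, -0.92 and -0.99 in slow/slow, a mean difference of 1.67 towards Otx2. The 3 slow/slow neuron libraries were close together (SD 0.05) beside the WT ones (SD 0.28).

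**Figure D4:**
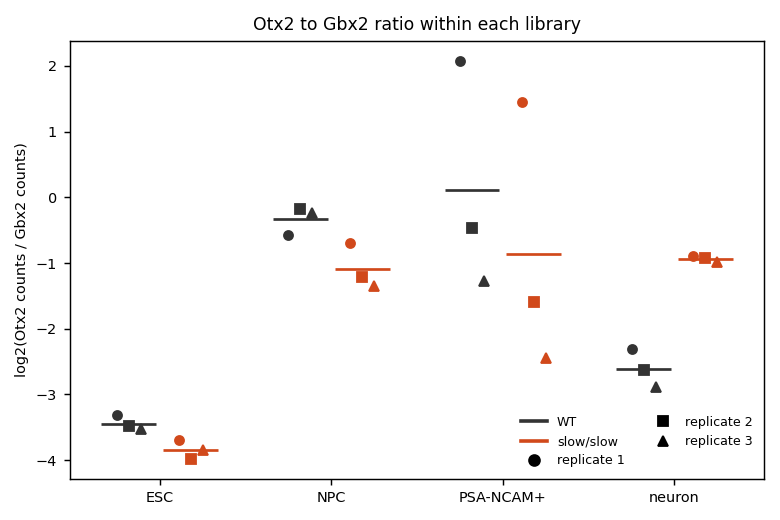
Ratio of Otx2 to Gbx2 counts within each library (vertical axis, log2) by stage and genotype, with lines for the means of 3 libraries. Slow/slow points lie below WT in ESCs and NPCs and above WT in neurons, and replicate 1 lies far above replicates 2 and 3 in PSA-NCAM+ cells of both genotypes.

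The steps of differentiation were read for each genotype, beside the share of all genes called. From ESCs to NPCs 5 members were called in WT (Emx2, Otx2 and En1 higher, Otx1 and En2 lower), where 65.6% of all genes were called, 34% higher and 31.6% lower. In slow/slow 7 were called, with Gbx2 and Pax2 higher as well, against 62.3% of genes, 33.9% higher and 28.4% lower. From NPCs to PSA-NCAM+ cells 5 were called in WT, 3 higher and 2 lower, against 41.3% of genes (21.8% higher, 19.5% lower), and 5 in slow/slow, 4 higher and 1 lower, against 42.3% (22.5% higher, 19.8% lower). From NPCs to neurons 7 were called in WT, 4 higher and 3 lower, against 80.2% of genes (41.4% higher, 38.9% lower), and 7 in slow/slow, again 4 and 3, against 75% (38.4% higher, 36.6% lower). En1 and Pax2 rose at the neuron step in both genotypes, Otx2 fell in both, and Otx1 and En2 changed in opposite directions in the 2 genotypes.

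Emx2 and Six3 had small differences along the later course. Emx2 rose from NPCs to PSA-NCAM+ cells in WT (0.86 ± 0.25, FDR = 0.00887) and in slow/slow (0.66 ± 0.25, FDR = 0.0414), the latter not called without slow/slow NPC replicate 1, 2 or 3 or slow/slow PSA-NCAM+ replicate 2 (0.51, 0.72, 0.75 and 0.68). From NPCs to neurons it fell in WT by 0.70 ± 0.25 (FDR = 0.017), not called without WT neuron replicate 3 (-0.64, FDR = 0.0591), and was 0.19 ± 0.26 in slow/slow (FDR = 0.51). Six3 was not called in any step of the fit over all 24 libraries, with log2 values from 0.65 to 0.92. Without the PSA-NCAM+ replicate 1 libraries it was called from NPCs to neurons in WT (0.73 ± 0.22, FDR = 0.0043) and in slow/slow (0.88 ± 0.24, FDR = 0.00161), from ESCs to NPCs in WT (0.73 ± 0.29, FDR = 0.025) and in slow/slow (0.79 ± 0.32, FDR = 0.0287), and from NPCs to PSA-NCAM+ cells in WT (1.09 ± 0.25, FDR = 0.000666). With the samples compared alone, Six3 was called from ESCs to NPCs and from NPCs to neurons in both genotypes (0.67 to 0.84, FDR from 0.00865 to 0.0483). En1 rose from NPCs to PSA-NCAM+ cells in WT (2.04 ± 0.33, FDR = 8.3e-05) and slow/slow (1.27 ± 0.31, FDR = 0.00255), and Lhx2 in slow/slow (1.11 ± 0.21, FDR = 0.000308).

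Whether a step differed between genotypes was tested for each member as an interaction. From ESCs to NPCs 3 members were called, all higher in slow/slow (Otx2, En1 and En2), against 24.6% of genes, 13.6% higher and 11% lower. From NPCs to PSA-NCAM+ cells Lhx2 was called higher, against 14.6% of genes, 7.52% higher and 7.04% lower. From NPCs to neurons Lhx2, Otx1 and Emx2 were called higher and En1, En2 and Gbx2 lower, against 55.1% of genes, 24.7% higher and 30.4% lower. Otx2, Six3 and Pax2 were not called at this step. Of the 12 fits that left out a library, Emx2 was called in 2, and the Gbx2 call was lost in each. En2 from ESCs to NPCs was called in 1 of 12. Beside the shares of all genes, these counts are not read as a result about the set.

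The surrounding patterning genes were read from 6 lists. Their counts stand beside the shares of all genes called in slow/slow cells, which were 29.3% higher and 27.4% lower in NPCs, 28.6% and 28.1% in PSA-NCAM+ cells, 23.4% and 28.4% in neurons, and 18.5% and 21.9% in ESCs. The total of 15 forebrain and eye genes called in NPCs, for example, lay near the share of all genes. For genes of the hindbrain (22, including Gbx1, Egr2 and anterior Hox genes), 19 were higher and 0 lower in slow/slow NPCs, with a median log2 difference of 2.00 against 0.01 over all genes. In PSA-NCAM+ cells 17 were higher and 0 lower (median 1.58 against -0.01), in neurons 12 and 2 (0.76 against -0.06), and in ESCs 1 and 4. In neurons Gbx1, the paralogue of Gbx2, was 10.6-fold higher in slow/slow (18.0 against 1.69 CPM, FDR = 2.53e-07). In ESCs Hoxb4 was lower (0.893 against 3.10 CPM, FDR = 0.00206) and Atoh1 higher (0.262 against 0.116 CPM, FDR = 0.0474), the latter near the detection limit. Its call was lost under upper-quartile scaling, without the filter and in DESeq2 (FDR from 0.0524 to 0.0682).

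For the midbrain-hindbrain boundary (16 genes), 10 were higher and 2 lower in slow/slow NPCs (median 0.86), 11 and 1 in PSA-NCAM+ cells (0.87), 8 and 7 in neurons (0.09), and 4 and 5 in ESCs (0.02). Wnt1, which maintains En expression in the midbrain, was higher at each stage after ESCs, at 1.04 against 0.0987 CPM in NPCs (FDR = 0.000413), 7.96 ± 8.93 against 0.230 ± 0.0587 in PSA-NCAM+ cells (SD, n = 3, FDR = 1.1e-06) and 8.13 against 0.117 in neurons (FDR = 2.79e-07). The slow/slow PSA-NCAM+ libraries ranged from 2.62 to 18.3 CPM of Wnt1, and its log2 difference of 5.09 ± 0.62 was 3.60 without slow/slow replicate 1 and 3.70 ± 0.31 without both replicate 1 libraries (FDR = 1.49e-10). Lmx1b, a boundary and dopaminergic factor, was lower in slow/slow NPCs (5.15 against 16.6 CPM, FDR = 1.2e-07) and PSA-NCAM+ cells (4.70 against 12.5, FDR = 8.44e-07). Fgf17, a signal of the boundary, was higher in slow/slow ESCs (14.3 against 3.50 CPM, FDR = 5.17e-08) and lower in slow/slow neurons (0.488 against 4.62, FDR = 2.89e-10). Pax5 was called lower in ESCs, where slow/slow libraries held 0 counts and WT libraries a mean of 0.0418 CPM, at the limit of detection, and its call was lost in 4 of the 6 fits that left out a library, those without WT replicate 1 or slow/slow replicate 1, 2 or 3 (FDR from 0.0509 to 0.0776).

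For forebrain and eye field (24 genes) the calls went both ways: 11 higher and 4 lower in NPCs (median 0.74), 8 and 8 in PSA-NCAM+ cells (0.37), 9 and 7 in neurons (0.55), and 3 and 3 in ESCs (-0.01). With the 6 PSA-NCAM+ libraries alone and the replicate number as a block, 10 rather than 16 of the list were called there. Six6, an eye field factor, was at 3.80 ± 0.775 CPM in slow/slow against 0.0628 ± 0.0285 in WT NPCs (SD, n = 3, FDR = 4.35e-08), and at 7.02 against 0.0224 in PSA-NCAM+ cells (FDR = 3.76e-09). Emx1, the cortical paralogue of Emx2, was lower in slow/slow NPCs (0.108 against 1.02 CPM, FDR = 4.6e-05), and Nkx2-1, of the ventral forebrain, lower in PSA-NCAM+ cells (0.0488 against 0.335, FDR = 0.000145). In neurons Dlx5, of forebrain interneurons, was lower (0.446 against 1.94 CPM, FDR = 6.41e-06). In ESCs Sp8 was higher (3.57 against 0.995 CPM, FDR = 3.11e-07), and Tbr1 had 0 counts in slow/slow and a mean of 0.145 CPM in WT (FDR = 0.000388).

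For signals that set the anterior-posterior axis (25 genes) 14 were higher and 4 lower in NPCs (median 0.70), 13 and 5 in PSA-NCAM+ cells (0.69), 9 and 10 in neurons (-0.13), and 4 and 4 in ESCs (0.02). Fgf15, a signal of the FGF family, stood at 60.4 ± 8.85 CPM in slow/slow against 1.33 ± 0.15 in WT NPCs (SD, n = 3, FDR = 1.13e-09) and at 115 against 1.22 in PSA-NCAM+ cells (FDR = 1.41e-10). Cdx1, a posterior caudal factor, was lower at these stages (1.82 against 5.68, FDR = 1.46e-06, and 0.758 against 4.16, FDR = 1.74e-08) and in neurons (0.0506 against 11.4 CPM, FDR = 1.19e-12). Cyp26c1, which degrades retinoic acid, was higher in slow/slow neurons (0.766 against 0.0134 CPM, FDR = 0.000106). In ESCs Wnt3a was higher (3.89 against 0.667 CPM, FDR = 4.43e-08) and Noggin (Nog) lower (0.124 against 0.451, FDR = 0.0138), the latter not called without slow/slow ESC replicate 2 (FDR = 0.0673).

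Because Gbx2 and Otx2 also mark pluripotent states, lists of naive and formative pluripotency were read beside them. Of 12 naive genes, 0 were higher and 11 lower in slow/slow NPCs (median -1.63), 0 and 9 in PSA-NCAM+ cells (-1.62), 7 and 0 in neurons (0.68), and 2 and 3 in ESCs (-0.17). Of 8 formative genes, 8 were higher and 0 lower in NPCs (2.13), 7 and 0 in PSA-NCAM+ cells (2.20), 2 and 2 in neurons (0.06), and 5 and 0 in ESCs (0.57). Gbx2 was thus higher in slow/slow NPCs while genes of the naive list were lower, and Otx2 higher while genes of the formative list were higher.

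Single genes gave the scale of this. Tfcp2l1, a naive factor, was at 39.2 CPM in slow/slow against 278 in WT NPCs (FDR = 2.68e-08), and Tbx3 at 22.6 against 172 in PSA-NCAM+ cells (FDR = 3.73e-09). Lef1, a Wnt effector of the formative state that is also made in neural tissue, was at 71.3 against 1.22 CPM in NPCs (FDR = 5.27e-09), at 3.72 against 0.752 in ESCs (FDR = 0.000467) and lower in neurons (7.99 against 18.7, FDR = 0.0102). Sox3 was higher in PSA-NCAM+ cells (44.7 against 3.17 CPM, FDR = 2.31e-07) and neurons (87.9 against 35.7, FDR = 0.00572). In ESCs Klf2 was higher (721 against 464 CPM, FDR = 0.0123, not called without WT ESC replicate 1, FDR = 0.0613) and Tcl1 lower (102 against 177, FDR = 0.000728), and in neurons Tcl1 was higher at 0.350 against 0.0699 CPM (FDR = 5.55e-05).

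**Figure D5:**
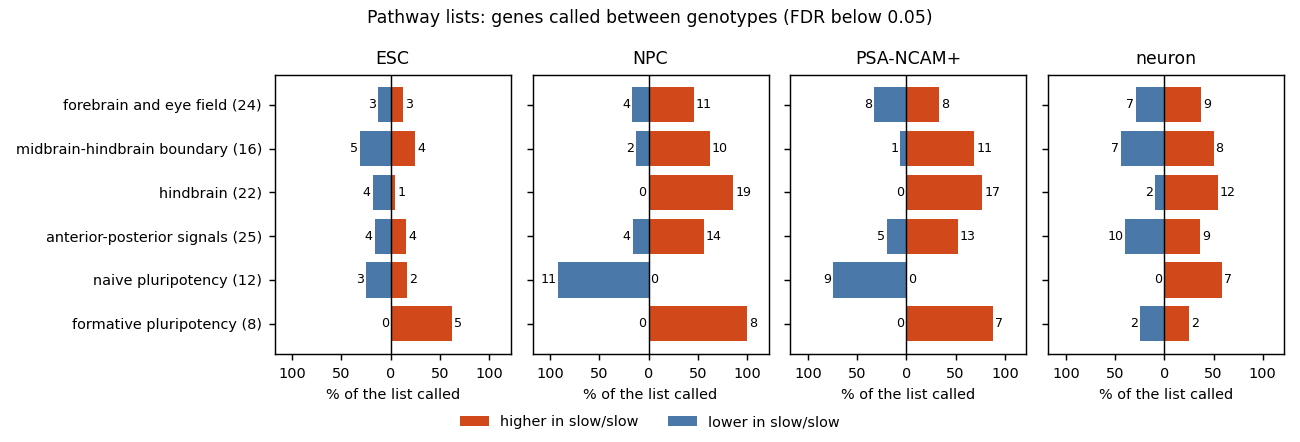
Share of each list (horizontal axis, percent of its tested genes, list size in parentheses) called higher to the right or lower to the left in slow/slow cells at each stage, with the number of genes at each bar. In NPCs 19 of 22 hindbrain genes lie to the right and 11 of 12 naive pluripotency genes to the left, and in ESCs most genes of 4 of the 6 lists were not called.

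Markers of other cell types were read as well, in bulk RNA that does not show whether cell numbers differed. Summed levels of 7 neural crest and placode markers were 154 to 161 CPM in slow/slow and 40.7 to 46.4 CPM in WT neurons, with 5 of 7 called higher. The 5 neuronal markers were lower, at 1645 to 1737 against 2158 to 2327 CPM, with 3 of 5 called lower, and the 4 progenitor markers higher, at 1578 to 1822 against 1235 to 1457 CPM, with 3 of 4 called higher. In PSA-NCAM+ cells all 5 neuronal markers were called higher in slow/slow (sums of 26.2 to 79.7 against 16 to 28.4 CPM). Summed levels of 6 endoderm markers, a tissue in which Otx2 is also active, overlapped in NPCs (117 to 151 CPM in slow/slow and 124 to 142 CPM in WT), with 2 of 6 called higher. In neurons these sums overlapped too (45.5 to 60.9 CPM in slow/slow and 48.8 to 56.6 CPM in WT), with 5 of 6 markers called higher and 1 lower. Summed levels of 7 astrocyte and oligodendrocyte markers were 31.4 to 33.6 CPM in slow/slow and 60.6 to 77.1 CPM in WT neurons, with 3 called higher and 3 lower. In NPCs, the summed level of 4 pluripotency markers was lower in slow/slow (1215 to 1338 against 1683 to 1718 CPM, 3 of 4 called lower) and that of 4 progenitor markers higher (612 to 721 against 442 to 471 CPM, 3 of 4 called higher). In PSA-NCAM+ cells the same sums were 424 to 626 against 931 to 1196 CPM and 1464 to 1727 against 707 to 921 CPM. Their part in the member results was not tested.

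The genes whose course was most like that of a member were sought by the root mean square difference of centred log2 levels over the 8 group means, where smaller is more alike. For Lhx2 these were Dapl1 (0.29), Il16 (0.31) and Txlnb (0.38), beside a root mean square of 1.37 for the Lhx2 course itself. En1, with an own course of 2.01, was closest to Nr2f2 (0.37), Zfp503 (0.37) and Gm447 (0.38). Pax2, with 2.99, was closest to Tox (0.34), Nkx6-1 (0.35) and Rnf150 (0.37). The nearest genes were picked as the closest among all tested genes, so small differences follow from the search. Otx2 (1.41) was followed by Gm5089 (0.42), Adprhl1 (0.46) and Arid3c (0.50), and Gbx2 (1.07) by Sfrp4 (0.40), Akr1b3 (0.60) and Gm9900 (0.60). Emx2 (2.09) was nearest to Loxl2 (0.32), Mmp2 (0.35) and Mal2 (0.37), and Otx1 (1.00) to Serpinb1c (0.28), Nod2 (0.38) and Notch4 (0.39). En2 (1.20) was nearest to Pcyt1b (0.43), Pank1 (0.49) and Ghsr (0.56), and Six3 (0.55) to Cyth3 (0.12), Msl3 (0.12) and Ebag9 (0.13). No member was among the 3 nearest genes of another member.

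Splicing within the members was read as percent spliced in (PSI), the share of transcripts that include an exon, splice site or intron. Of 46 listed events of the 9 genes, enough reads in all 6 libraries of a stage were present for 2 events in ESCs, 4 in NPCs, 6 at the PSA-NCAM+ stage and 21 in neurons, of which 11 lay in Pax2. None differed by more than 10 PSI points without overlap between genotypes, where in neurons 3.75% of all exons, 0.805% of all alternative splice site entries and 0.442% of all introns did. Retention of the En1 intron (mm9 chr1:122500499-122503449) was 0.7, 1.4 and 2.6 PSI in WT and 6.8, 6.6 and 5.1 PSI in slow/slow neurons, separate but by 4.6 points only. A 69-base Pax2 exon (mm9 chr19:44871118-44871186) was at 9.6, 10.7 and 11.1 PSI in WT and 12.5, 18.1 and 18.6 PSI in slow/slow neurons, a mean difference of 5.9 points.

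Alternative acceptors moved in the same range. A Pax2 acceptor (mm9 chr19:44835368-44835396) was used at 50.6, 59.5 and 48.1 PSI in WT and 63.5, 66.2 and 59.5 PSI in slow/slow neurons, a mean difference of 10.4 points between groups that touched at 59.5. An Otx2 acceptor (mm9 chr14:49281083-49281125) was used at 64.3, 71.9 and 75.0 PSI in WT and 82.3, 77.4 and 77.3 PSI in slow/slow neurons, separate by a mean of 8.6 points, while in NPCs the values overlapped (78.1 ± 5.5 and 79.4 ± 4.0 PSI, SD, n = 3). The single Gbx2 intron was retained at means from 0.5 to 3.1 PSI in all 8 groups, also in slow/slow NPCs, where Gbx2 was 3.91-fold higher than in WT.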

How the data were processed

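RNA was sequenced from 24 libraries, 3 per genotype and stage (TruSeq stranded, 75-base paired ends). The authors counted reads per gene with vast-tools, and the deposited table holds these raw counts together with mean RPKM per group, computed by the authors. Deposited splicing tables hold inclusion as a percent (PSI), with the authors' quality score and read numbers for each event. Columns of the authors' own fold changes and tests, and a splicing table of group values, were not used. Coordinates of events are mm9, and gene positions are GRCm38. Whether counting used strand is not given in the sources used here, and antisense genes overlap several members, so reads of such partners could not be told apart.

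The counts were fitted in edgeR 4.0.16 (quasi-likelihood F test, R 4.3.3) as 8 groups in one model, with filterByExpr, TMM scaling and Benjamini-Hochberg adjustment over 16627 genes. Of 22667 genes listed, 1114 had no values, and the filter removed 0.00539% of counts. Totals of 32974432 to 104466886 counts per library set the precision, and counting intervals cover counting error only. The fit was tested on simulated data. Members were named in full. From each other list, the genes named were the called gene with the highest and the called gene with the lowest log2 difference at each stage. A few genes that this rule names are not reported here. Members and lists were chosen with earlier results of these data known. The study's methods describe 3 independent differentiations.

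Same-numbered PSA-NCAM+ libraries deviated together between genotypes (correlations of 0.54, 0.455 and 0.401). WT replicate 2 with slow/slow replicate 3 (0.399) and WT replicate 3 with slow/slow replicate 2 (0.241) did so too. The correlations set replicate 1 of both genotypes apart, but do not show that replicates 2 and 3 are paired by number. At the other stages no same-numbered pair of WT and slow/slow libraries had a correlation above 0.1, the highest being 0.0677 for ESC replicate 1. Between slow/slow NPC and PSA-NCAM+ libraries, the same-numbered correlations were 0.238, 0.149 and 0.0939. NPC replicate 2 with PSA-NCAM+ replicate 3 gave 0.11 there. In WT the same-numbered values of that step were -0.0504, -0.0375 and -0.0242. Steps were fitted without pairing in the main model. Alternatives were DESeq2 size factors, upper-quartile scaling, DESeq2 1.42.0, no filter, the samples compared alone, a replicate block and each library left out. A block within the PSA-NCAM+ libraries and the removal of both PSA-NCAM+ replicate 1 libraries were added after seeing the data. Splicing was compared where every library of a stage had enough reads, and called at over 10 points without overlap.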

Additional observations from a re-analysis of the deposited data

Results flagged for a closer look

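The difference between genotypes changed with stage for the members named below, by an interaction term in edgeR's quasi-likelihood test over all genes, and the steps share the NPC libraries. Between ESCs and NPCs, 24.6% of all genes had such a change. It was 1.24 ± 0.25 on the log2 scale for Otx2 (FDR = 0.00101), 1.83 ± 0.56 for En1 (FDR = 0.0223) and 1.20 ± 0.40 for En2 (FDR = 0.0338). Of the 12 fits that left out a library, Otx2 was called in 12, En1 in 10 and En2 in 1.

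Between NPCs and PSA-NCAM+ cells, where 14.6% of genes were called, Lhx2 changed by 1.05 ± 0.29 (FDR = 0.0191). It was called in all 12 fits, and without both PSA-NCAM+ replicate 1 libraries its value was 0.61 (FDR = 0.0195). With the NPC and PSA-NCAM+ libraries alone the call was lost (1.07, FDR = 0.138).

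Between NPCs and neurons, where 55.1% of genes were called, 3 forebrain factors moved up in slow/slow relative to WT, by 4.06 ± 0.29 for Lhx2 (FDR = 1.36e-09), 3.48 ± 0.64 for Otx1 (FDR = 0.000131) and 0.88 ± 0.36 for Emx2 (FDR = 0.0434). Of the boundary and hindbrain factors 3 moved down, by -3.20 ± 0.41 for En2 (FDR = 1.96e-06), -1.86 ± 0.44 for En1 (FDR = 0.00146) and -1.86 ± 0.76 for Gbx2 (FDR = 0.0456). The members not called were Otx2 (0.54 ± 0.24, FDR = 0.061), Six3 (0.20 ± 0.70, FDR = 0.829) and Pax2 (-1.13 ± 0.64, FDR = 0.144). Lhx2, Otx1, En2 and En1 were called in all 12 fits that left out a library, Emx2 in 2 (0.74 to 1.02) and Gbx2 in 0 (-1.92 to -1.79, FDR from 0.0578 to 0.0792).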

How the results depend on the processing

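Counts of called members and of list genes depended most on which libraries set the spread. With only the samples compared, called members numbered 2 rather than 5 in PSA-NCAM+ cells, 7 rather than 4 in neurons, 8 rather than 5 from ESCs to NPCs in WT and 3 rather than 5 from NPCs to PSA-NCAM+ cells in slow/slow, and interactions 6 rather than 3 (ESCs to NPCs) and 0 rather than 1 (NPCs to PSA-NCAM+). In the same setting, list genes called were 9 rather than 5 for hindbrain and 9 rather than 5 for naive genes in ESCs, 10 rather than 16 for forebrain and 7 rather than 12 for boundary in PSA-NCAM+ cells, and 7 rather than 4 for formative genes in neurons. The replicate block within PSA-NCAM+ cells gave 10 for forebrain and lost Pax2 (1.42), while the replicate block over all groups left 5 members called there and changed no member's call. Without both PSA-NCAM+ replicate 1 libraries the counts were 10 for hindbrain in ESCs, 8 for formative genes in neurons, and 5 and 2 for those interactions. That setting reversed Lhx2 in PSA-NCAM+ cells (-0.32) and, from NPCs to PSA-NCAM+ cells in slow/slow, Otx1 (-0.40) and Six3 (-0.30). Upper-quartile scaling shifted the median of all genes by 0.14 between genotypes in neurons, by -0.27 from NPCs to neurons in WT and by 0.18 in the neuron interaction.

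Leaving out each library in turn gave 1 to 1 called members in ESCs, 3 to 5 and 3 to 7 from NPCs to PSA-NCAM+ cells in WT and slow/slow, 1 to 3 and 1 to 2 interactions, 2 to 5 hindbrain, 3 to 5 naive and 3 to 5 formative genes in ESCs, 2 to 3 formative genes in neurons, 0 to 2 splicing events in neurons, and an Otx2 to Gbx2 difference of -2.13 to 0.01 in PSA-NCAM+ cells. Signs turned for these values, none called with all libraries: Otx2 in ESCs (-0.11 to 0.07, and 0.00, 0.00, 0.01 and 0.00 with DESeq2 size factors, no filter, the samples compared and DESeq2), En1 in ESCs (-0.22 to 0.27) and neurons (-0.02 to 0.17), Six3 in ESCs (-0.24 to 0.12), NPCs (-0.24 to 0.07) and PSA-NCAM+ cells (-0.98 to 0.47), Otx1 (-1.43 to 0.22) and Lhx2 (-0.14 to 0.33) in PSA-NCAM+ cells, Lhx2 from ESCs to NPCs in slow/slow (-0.02 to 0.15), and from NPCs to PSA-NCAM+ cells En2 (-0.14 to 0.13) and Lhx2 (-0.15 to 0.32) in WT, and Otx1 (-0.41 to 1.24) and Six3 (-0.29 to 1.03) in slow/slow. The causes were not tested.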
